A study of Mus musculus with 28 samples.

Results

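The repressive histone mark H3K9me2, placed by EHMT2 with its partner EHMT1, lay in broad domains in mouse embryonic stem cells (mESCs), and 311 of these domains were met by 4 or more separate domains after EHMT2 had been degraded. They are called the broken domains here. When dTAG domains only 1 bin (5 kb) apart were joined first, 124 domains were left. They were selected from the 3870 domains of the mESC DMSO set on chromosomes 1 to 19, of which they make up 8.04%, by counting for each one the domains of the mESC dTAG set that share at least 1 base with it. The stretches of a broken domain that a dTAG domain still covered are its pieces, and the uncovered stretches between the first and the last piece are its gaps. Since this comparison selected the domains, the number of pieces, their widths and the share of bases kept are given as a description, with no test.

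All cells came from an EHMT2-dTAG-mCherry line on a BL6/129 hybrid background, in which every endogenous copy of Ehmt2 carries a degron, so that the degrader dTAG-13 removes the protein and DMSO is the solvent control. According to the methods of the study, this was 1 clone. A MERVL-GFP reporter, driven by a retroviral promoter that is active in the 2-cell embryo, marked 2-cell-like cells (2CLCs), a rare state in mESC cultures. After 72 h in DMSO or dTAG-13 sorting by GFP gave mESCs (negative) and 2CLCs (positive), and each of the 4 conditions gave 3 H3K9me2 immunoprecipitation and 3 input libraries by native chromatin immunoprecipitation for small cell numbers (ULI-NChIP). The retinoic acid receptor agonist TTNBP had been added for 2 of the replicates per the labels, which do not name them, while the methods of the study mention the agonist for the sorted cells with no such limit. Each condition may therefore mix cultures with and without it. Every condition is represented by a single list of domain positions with no value per replicate, so no spread between replicates and no p-value can be given, and the depth behind the lists is unknown. Intervals below are Wilson 95% intervals of a share or exact Poisson 95% intervals of a count and cover counting error only. Neighbouring domains and gaps are not independent of each other. The names mESC and 2CLC rest on the sort, because positions of a histone mark hold no expression of marker genes to check them against.

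As background, H3K9me2 is laid down by the EHMT1 and EHMT2 complex over wide stretches of gene-poor chromatin, where it is associated with silent genes and with the nuclear periphery, and it forms blocks rather than narrow peaks. Loss of EHMT2 lowers the mark, while other H3K9 methyltransferases remain in the cell. Silent gene clusters such as those of olfactory and vomeronasal receptors commonly lie in such blocks in mESCs, as do some long genes used in neurons.

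The promoters of 4 genes are shown as examples of start sites in gaps and pieces, although the lists resolve no step under 5 kb and so do not place a break within them. Printed are the 250 bases before the RefSeq start (GRCm38.p6), written 5′ to 3′ on the gene's own strand, with each CG dinucleotide, the site of DNA methylation, in capitals. Lrrtm1, Kcnh7 and Unc5c started in gaps, and Pdha2, for a pyruvate dehydrogenase subunit of the testis, started in a piece of the same domain as Unc5c. The Lrrtm1 promoter lay at chr6:77242227-77242476 on the plus strand, that of Kcnh7 at chr2:63184288-63184537 on the minus strand, that of Unc5c at chr3:141465314-141465563 on the plus strand and that of Pdha2 at chr3:141212356-141212605 on the minus strand.
Lrrtm1: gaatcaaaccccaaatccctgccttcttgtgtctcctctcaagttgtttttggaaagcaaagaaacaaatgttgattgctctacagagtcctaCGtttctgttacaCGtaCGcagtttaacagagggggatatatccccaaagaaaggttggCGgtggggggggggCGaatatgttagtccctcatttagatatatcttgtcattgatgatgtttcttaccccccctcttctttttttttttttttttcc
Kcnh7: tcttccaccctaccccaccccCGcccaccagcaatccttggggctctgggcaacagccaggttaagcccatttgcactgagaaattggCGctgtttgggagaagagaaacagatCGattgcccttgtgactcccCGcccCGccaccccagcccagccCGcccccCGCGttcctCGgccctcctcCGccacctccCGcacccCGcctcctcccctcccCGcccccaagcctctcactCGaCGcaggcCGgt
Unc5c: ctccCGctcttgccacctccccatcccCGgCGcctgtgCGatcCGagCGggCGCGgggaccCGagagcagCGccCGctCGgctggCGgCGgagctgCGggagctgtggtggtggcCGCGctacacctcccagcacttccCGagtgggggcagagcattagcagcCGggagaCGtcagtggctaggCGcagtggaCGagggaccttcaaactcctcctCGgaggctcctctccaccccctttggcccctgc
Pdha2: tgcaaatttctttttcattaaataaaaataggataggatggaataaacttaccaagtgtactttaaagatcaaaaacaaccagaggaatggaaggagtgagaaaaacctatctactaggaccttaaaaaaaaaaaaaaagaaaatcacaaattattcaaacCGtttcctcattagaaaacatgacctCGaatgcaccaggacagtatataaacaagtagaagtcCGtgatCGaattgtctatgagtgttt
These 250 bases held 23 CG in Unc5c, 16 in Kcnh7, 5 in Lrrtm1 and 4 in Pdha2. At least as many CG stood in 13.5%, 26.2%, 56.0% and 62.5% of the promoters of 25748 autosomal genes in the same table, in that order. That table holds more genes than the 20807 protein-coding ones used below.

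The broken domains were wide. Their width ran from 180 kb to 5430 kb with a median of 860 kb and quartiles of 528 kb and 1315 kb, against a median of 145 kb over all 3870 domains. They held 336 Mb, or 26.1% of the 1290 Mb in mESC DMSO domains. Wide domains have more room for breaks, and width and number of pieces had a Spearman rho of 0.53 over the 311 domains, which share the same 2 domain lists. The number of pieces was 4 in 150 domains (48.2%), 5 in 74 (23.8%), 6 or 7 in 61 (19.6%) and 8 or more in 26 (8.36%), with 15 as the highest. Just inside the limit, the 150 domains with exactly 4 pieces had a median width of 600 kb and kept 78.0% of their bases. Just outside it, the 306 domains with exactly 3 pieces had a median width of 455 kb and kept 81.1%. Every autosome had broken domains, from 6 on chromosome 17 to 24 on chromosome 3.

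**Figure D1:**
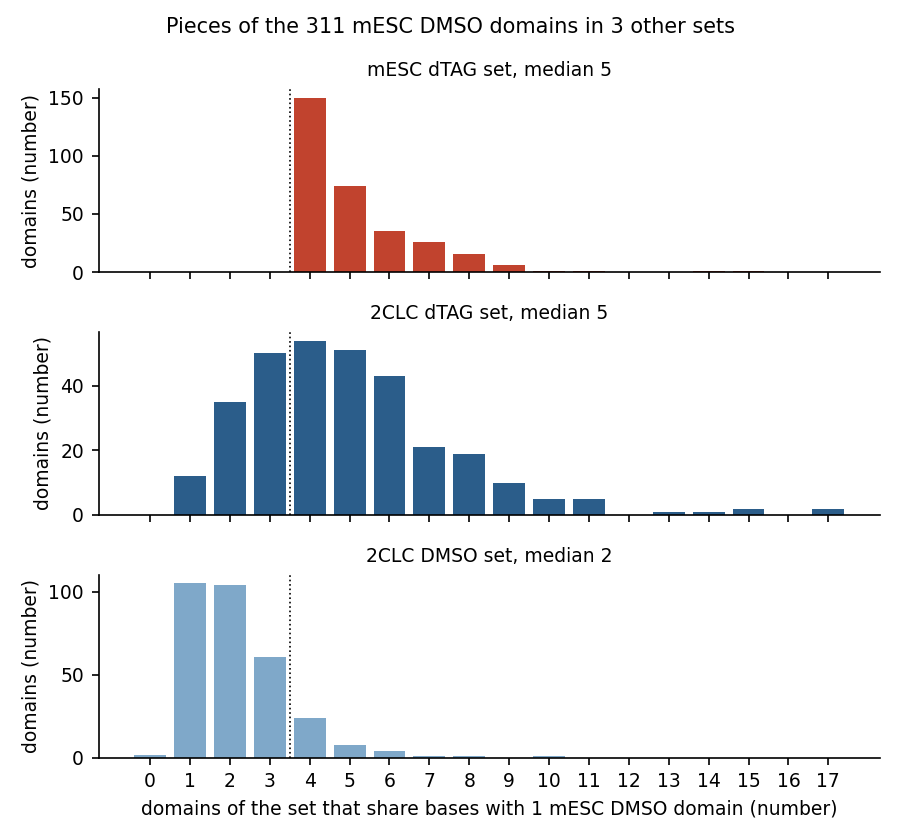
For the 311 broken domains, bars give the number of domains (y axis) that share bases with a given number of domains (x axis) of the mESC dTAG set, which chose them, and of the 2CLC dTAG and 2CLC DMSO sets. The dotted line marks the limit of 4; the medians were 5, 5 and 2.

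Most bases of the broken domains were still inside a domain after EHMT2 loss. Domains were called from percentiles of the signal, so a base kept in a domain need not have kept its amount of the mark. The study reported a global fall of H3K9me2 after EHMT2 depletion in these sorted cells. Over the autosomes, 3870 mESC DMSO domains covered 53.7% of the bins and 6770 mESC dTAG domains covered 45.8%. The 1594 pieces held 273 Mb, so that 81.1% of the bases were kept. Over single domains the kept share ran from 15.6% to 99.2% with a median of 80.3%, and 279 of 311 kept at least 50% of their bases (89.7%, interval 85.8 to 92.6). In 88 domains (28.3%) at least 90% was kept. Pieces were 5 kb to 3680 kb wide with a median of 90 kb.

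The gaps were many and mostly small, and a few wide ones held much of the bases lost. There were 1283 gaps, or 453 after dTAG domains 1 bin apart were joined. The 1283 gaps held 43.5 Mb in all, or 12.9% of the bases of the broken domains, and the uncovered ends held another 20.0 Mb (5.95%). Gap width ran from 5 kb to 455 kb with a median of 10 kb. A single bin of 5 kb, the smallest step of the domain grid, made up 561 of the gaps (43.7%, interval 41.0 to 46.5) but 6.45% of gap bases, while the 86 gaps of at least 125 kb held 36.9% of them. In 48 domains (15.4%) no gap was wider than 10 kb, and these kept a median of 94.9%. In 102 domains (32.8%) a gap of at least 100 kb had opened. With each domain cut into 5 parts of equal width, gaps took up 11.9%, 14.1%, 13.2%, 14.3% and 11.2% of the bases from the first part to the last. Uncovered ends, which lie at the borders, do not count as gaps. These shares therefore do not show how all uncovered bases were spread along the domains. At the outer borders, 330 of the 622 domain ends were not covered by a dTAG domain (53.1%), and at 235 of the 622 (37.8%) a dTAG domain ran across the old border.

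The domain with the most pieces lay on chromosome 14 (mm10 chr14:9646135-11181132, 1535 kb) and fell almost wholly inside Fhit (ENSMUSG00000060579.13), a long gene for a dinucleoside hydrolase that spans a known fragile site. The 15 pieces were 15 kb to 150 kb wide and kept 66.4% of it. The 14 gaps summed to 510 kb, with the widest at 180 kb, and all lay inside the body of Fhit, whose start was in the last piece. The 2CLC DMSO set covered 98.7% of this domain with 4 domains, and the 2CLC dTAG set covered 78.2% with 15. Yet the breaks coincided only in part, since 36.3% of the gap bases and 14.2% of the piece bases lay outside 2CLC dTAG domains. The widest of these gaps was 63.9% open in 2CLC dTAG, and the neighbouring gaps of 50 kb and 55 kb were 10% and 9.09% open.

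**Figure D2:**
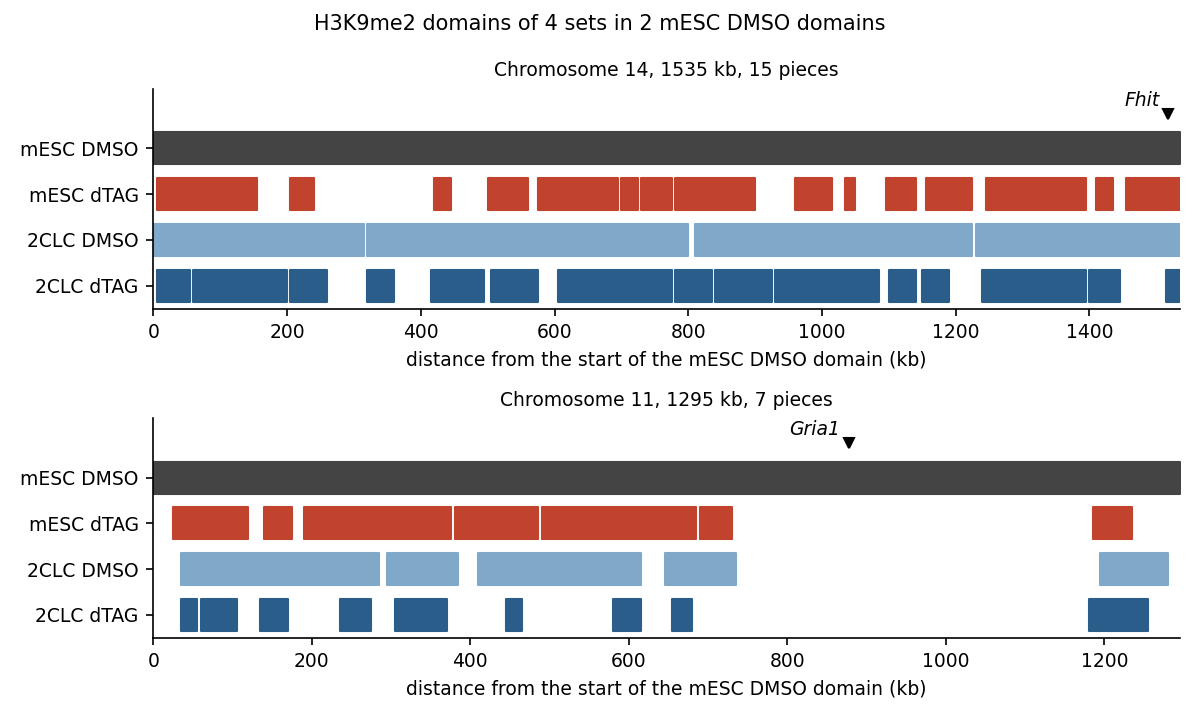
Bars are the domains of the 4 sets along 2 broken domains, the one with the most pieces and the one with the widest gap; the x axis is the distance from the domain's start in kb and triangles mark gene starts. The gap of 455 kb at Gria1 was uncovered in mESC dTAG and in both 2CLC sets, whereas the gaps in the upper domain were covered in 2CLC DMSO almost throughout.

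The widest gap of all spanned 455 kb on chromosome 11 (chr11:56864759-57319757) and held the start and most of the body of Gria1 (ENSMUSG00000020524.16), which encodes an AMPA-type glutamate receptor subunit. It lay in a domain of 1295 kb with 7 pieces, of which 54.4% was kept. Here 98.9% of the gap was outside 2CLC dTAG domains and 98.9% outside 2CLC DMSO domains as well, so this stretch was inside a domain only in mESC DMSO. The next gaps in width were unlike it. A gap of 380 kb (chr10:64229916-64609914) lay inside Ctnna3, an alpha-catenin gene, and one of 365 kb (chr10:92089879-92454877) held no protein-coding gene. Each was 65.8% open in 2CLC dTAG, against 2.63% and 0% in 2CLC DMSO. The domain with the Ctnna3 gap also had a gap of 60 kb at the start of Lrrtm3, a synaptic adhesion gene nested in Ctnna3, and that gap was 100% open in 2CLC dTAG and 25% open in 2CLC DMSO.

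The other domains with the most pieces differed in how much they kept. The domain with 14 pieces on chromosome 18 (chr18:25764583-30044576, 4280 kb) had no protein-coding start and kept 80.3%. One with 11 pieces (chr10:15419981-17724977, 2305 kb) kept 81.6%, and its uncovered end held the start of Cited2, a transcriptional coregulator. One with 10 pieces (chr11:24709802-25854799, 1145 kb) kept 42.4% and had 545 kb of gaps, of which 78.9% lay outside 2CLC dTAG domains. One with 9 pieces (chr6:73521310-77636304, 4115 kb) kept 93.9%, and its widest gap, 150 kb long and 93.3% open in 2CLC dTAG, held the start of Lrrtm1 within the body of Ctnna2. In each of these 4 domains the 2CLC DMSO set had 2 domains covering at least 98.7%, and the 2CLC dTAG set had 17, 7, 9 and 14 domains in the order given.

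Some of the widest domains kept nearly all of their bases. The widest broken domain (chr5:54196222-59626214, 5430 kb, with Pcdh7) had 8 pieces but only 45 kb of gaps, none of them open in 2CLC dTAG, and kept 98.2%. The third in width (chr5:77406191-81646184, 4240 kb, with the adhesion receptor gene Adgrl3) kept 97.5% in 6 pieces. The highest kept shares, 99.2%, 99.1% and 98.7%, belonged to domains of 3035 kb, 3295 kb and 3340 kb with 5 pieces each. The first of these (chr17:37256965-40291960) carried a cluster of olfactory receptor genes, and all 57 of its protein-coding starts were in pieces.

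At the low end, 15.6%, 17.7% and 22.5% of the bases were kept. The domain with 15.6% (chr1:72880113-73615111, 735 kb) had a gap of 345 kb around Tnp1, a gene for a transition protein of the sperm head, 91.3% of which was already outside the 2CLC DMSO domains. The domain with 17.7% (chr1:193739952-194614949, 875 kb) had no protein-coding start, was 98.9% covered in 2CLC DMSO, and had its gaps 86.8% open in 2CLC dTAG. The domain with 22.5% (chr4:103364481-104364479, 1000 kb) lay mostly on Dab1, a gene of the reelin pathway of neuronal migration, and its gaps were 96.6% open in 2CLC dTAG and 42.1% in 2CLC DMSO. Its pieces were 51.1% open in 2CLC dTAG and 64.4% in 2CLC DMSO, in the latter more than the gaps.

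Among the narrowest broken domains, 180 kb, 190 kb and 205 kb wide, the first (chr4:10694604-10874603) was in 4 pieces in mESC dTAG yet 1 domain covered all of it in each 2CLC set. The domain of 190 kb (chr3:19699485-19889484) was also met by 1 domain in each 2CLC set, but the 2CLC dTAG one covered only 78.9% of it. There 23.5% of its piece bases and none of its gap bases were outside 2CLC dTAG domains. The domain of 205 kb (chr14:55966073-56171072) held a cluster of protease genes of mast cells and cytotoxic lymphocytes: the starts of Mcpt1, Mcpt9, Mcpt2 and Mcpt4 lay in a gap of 50 kb and those of Mcpt8, Ctsg and Gzme in a gap of 45 kb, while Gzmd and Gzmg started in a piece. In 2CLC dTAG the first of these gaps was 50% open and the second 100% open. The regions above were named by rank, and their values describe the extremes of the list.

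Across the 311 broken domains, 2CLCs treated with dTAG-13 broke many of the same domains. In the 2CLC dTAG set 214 of the 311 were met by 4 or more domains (68.8%, interval 63.5 to 73.7), against 10.1% of all mESC DMSO domains. The median was 5 domains, with a range from 1 to 17. Only 12 of the 311 were met by a single 2CLC dTAG domain. The 2CLC DMSO set broke them less: 39 of the 311 were met by 4 or more domains (12.5%, interval 9.31 to 16.7), against 1.42% of all mESC DMSO domains, 105 were met by 1 domain and 2 by none. The 2CLC DMSO set covered 95.5% of their bases and the 2CLC dTAG set 81.0%, close to the 81.1% of mESC dTAG.

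Width by itself raises such counts, so broken domains were set beside other mESC DMSO domains of the same width class. The classes are broad and width was not matched within them, so they adjust for width only coarsely. From 180 to 495 kb, 25 of 65 broken domains were met by 4 or more 2CLC dTAG domains (38.5%, interval 27.6 to 50.6) and 59 of 928 others (6.36%, interval 4.96 to 8.11). From 500 to 995 kb the shares were 66.4% of 122 and 23.2% of 272. From 1000 to 1995 kb they were 86.5% of 89 and 31.6% of 114, and from 2000 to 5430 kb they were 88.6% of 35 and 32.1% of 56. The intervals of broken and other domains did not overlap in any of these 4 width classes. In 2CLC DMSO the share was also higher in broken than in other domains in each class, so this order was not particular to the treated set. From the narrowest class to the widest it was 4.62% and 0.216%, 10.7% and 2.21%, 20.2% and 4.39%, and 14.3% and 5.36%. These shares rest on few domains, with 3 of 65 and 2 of 928 in the narrowest class and 5 of 35 and 3 of 56 in the widest. No intervals were computed for them.

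Within the broken domains, bases left uncovered by mESC dTAG domains were also more often uncovered in 2CLC dTAG. Of the gap bases 51.8% lay outside 2CLC dTAG domains, compared with 10.0% of the piece bases and 70.5% of the bases in uncovered ends. Part of this was uncovered in 2CLC DMSO too: 43.2% of gap bases and 8.98% of piece bases were inside 2CLC DMSO domains and outside 2CLC dTAG domains, and 8.63% and 1.06% were outside both. The share was higher in gaps than in pieces on 19 of 19 chromosomes, where it had an SD of 11.5 percentage points for gaps (17.6% to 69.7%) and 3.89 for pieces (5.09% to 17.7%). It was higher in gaps in 247 of the 311 domains (79.4%), lower in 59 and equal in 5. The 1011 domains in 2 or 3 pieces had a like contrast, with 57.2% of gap bases and 8.32% of piece bases outside 2CLC dTAG domains. The contrast was therefore not particular to the broken domains. The mESC dTAG and 2CLC dTAG lists come from the same treated cultures, parted only by the sort, so a likeness between them is not independent of the culture. The same holds for the mESC DMSO and 2CLC DMSO lists, and all gaps lie inside mESC DMSO domains by the rule. The contrast between the 2CLC sets is therefore not free of the selection. In 2CLC DMSO, which the rule did not use, 10.5% of gap bases and 2.15% of piece bases lay outside domains, again with the higher share in gaps on 19 of 19 chromosomes, but in single domains the direction was mixed, with 122 higher, 103 lower and 86 equal. The uncovered share of a domain in mESC dTAG had a Spearman rho of 0.72 with that in 2CLC dTAG and of 0.43 with that in 2CLC DMSO over the 311 domains.

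**Figure D3:**
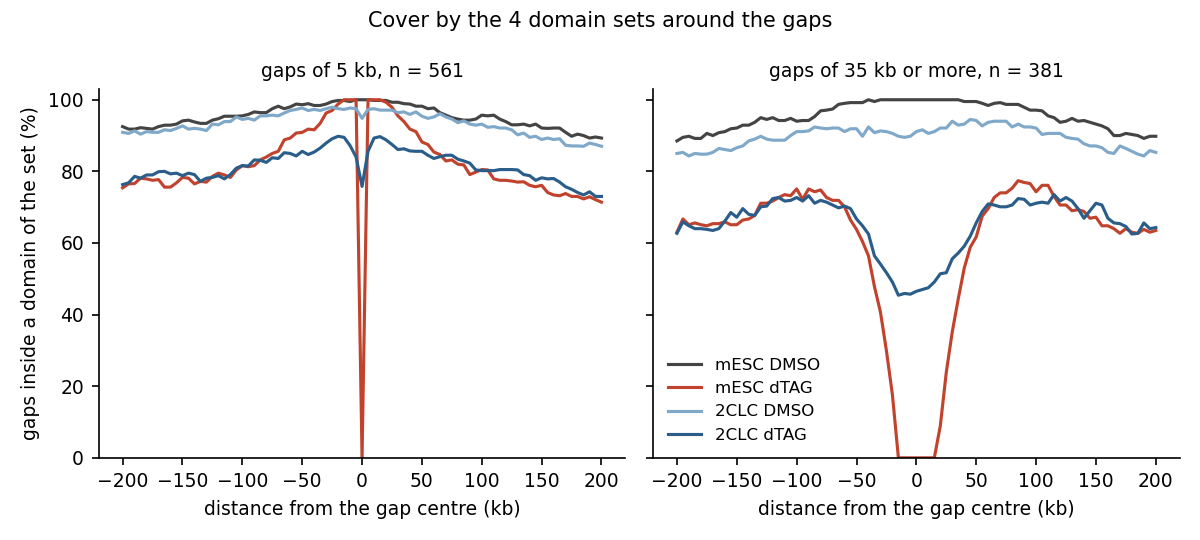
Lines give the share of gaps (y axis, %) that lie inside a domain of each of the 4 sets at a given distance from the gap's centre (x axis, kb), for the 561 gaps of 5 kb and the 381 gaps of 35 kb or more. At the centre, where mESC dTAG is 0% and mESC DMSO 100% by the rule, 2CLC dTAG stood at 75.8% and 46.5% and 2CLC DMSO at 94.8% and 91.1%.

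Counted as gaps rather than bases, most gaps were not shared. With a gap called open in a set when at least 50% of its bases lay outside that set's domains, 802 of the 1283 gaps were covered in both 2CLC sets (62.5%, interval 59.8 to 65.1), and these had a median width of 5 kb. A further 384 (29.9%) were open in 2CLC dTAG and not in 2CLC DMSO, with a median width of 20 kb and 20.6 Mb in all. Only 59 (4.6%) were open in both 2CLC sets, and 38 (2.96%) were open in 2CLC DMSO alone. In the other direction, the 2CLC dTAG set had 1235 inner breaks of its own in these domains, and 568 of them shared bases with an mESC dTAG gap (46.0%, interval 43.2 to 48.8). Of the 372 inner breaks of the 2CLC DMSO set, 162 did so (43.5%, interval 38.6 to 48.6), an interval that overlaps the first. By bases, 46.7% of the 2CLC dTAG inner breaks and 47.3% of the 2CLC DMSO ones lay in a gap. Gaps took up 12.9% of the bases of the broken domains.

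Wide gaps were shared more than narrow ones. Of the 561 gaps of 5 kb, 24.2% (interval 20.9 to 28.0) were open in 2CLC dTAG. The share was 34.3%, 35.2% and 35.5% for gaps of 10 to 15, 20 to 30 and 35 to 60 kb, whose intervals overlapped each other. It was 51.4% (interval 43.2 to 59.6) for gaps of 65 to 120 kb and 72.1% (interval 61.8 to 80.5) for gaps of 125 kb or more. In 2CLC DMSO the share stayed between 5.17% and 13.0% in the 6 classes, without an order by width.

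**Figure D4:**
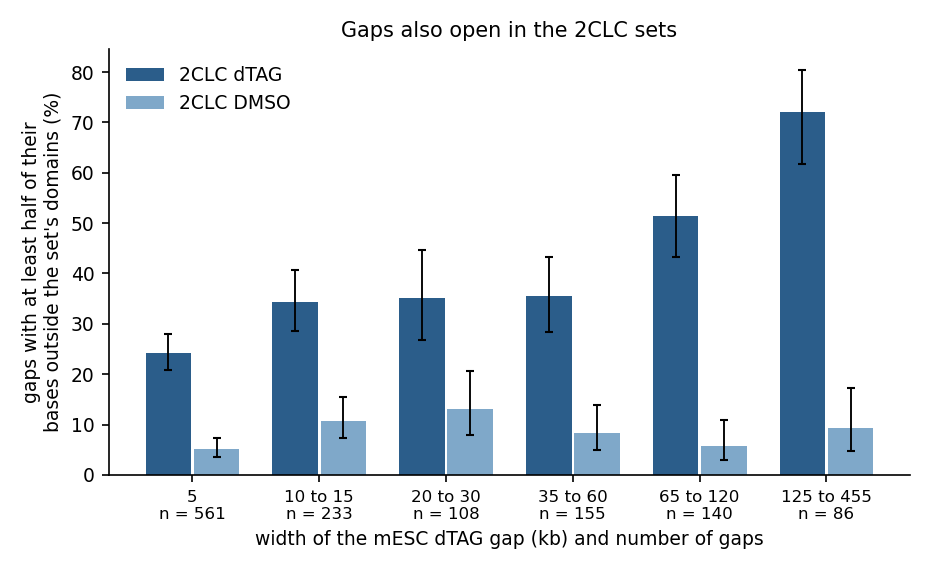
Bars give the share of gaps (y axis, %) with at least 50% of their bases outside the domains of 2CLC dTAG or 2CLC DMSO, by gap width in kb (x axis, with the number of gaps). Error bars are Wilson 95% intervals; the 2CLC dTAG share was 24.2% in the narrowest and 72.1% in the widest class.

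The positions of the breaks matched to within a bin for a minority of edges. Of the 2566 piece edges that border a gap, 702 lay within 1 bin of an edge of a 2CLC dTAG domain (27.4%, interval 25.7 to 29.1), whereas 10.8% of all bin borders inside the same domains did. For an edge at exactly the same bin border the shares were 14.3% and 4.18%. The 2CLC DMSO set had fewer domains, and both shares were lower for its edges. Within 1 bin they were 7.52% of piece edges and 3.36% of all borders, and at exactly the same border 4.01% and 1.35%. Piece edges thus stood above all borders in both 2CLC sets. A gap with both of its edges within 1 bin of those of an uncovered stretch in 2CLC dTAG was found 156 times among the 1283 (12.2%, interval 10.5 to 14.1) and 23 times among the 381 gaps of at least 35 kb (6.04%). For 2CLC DMSO these counts were 42 (3.27%) and 4 (1.05%).

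The sequence of gaps and pieces differed most in repeats. Soft-masked bases, those that the RefSeq assembly writes in lower case as repeats, made up 26.5% of gaps, 38.8% of pieces and 25.6% of uncovered ends, against 26.0% of the grid outside both mESC sets. Gaps had fewer of them than pieces on 19 of 19 chromosomes, and the soft-masked share was higher in gaps in only 18 of the 311 domains (5.79%). The share in gaps was between 25.2% and 28.3% in all 6 width classes. GC content was 39.8% in gaps and 38.6% in pieces and was higher in gaps on 18 of 19 chromosomes, but in single domains it was higher in gaps in 166 of 311 (53.4%, interval 47.8 to 58.8), so the difference did not hold domain by domain. Pieces of domains in 2 or 3 pieces, 1011 domains in number, had 41.9% soft-masked bases and their gaps 27.5%, so the contrast was not limited to the broken domains. According to the methods, reads with several matches in the genome were assigned, and the part of read assignment in the repeat difference was not tested.

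**Figure D5:**
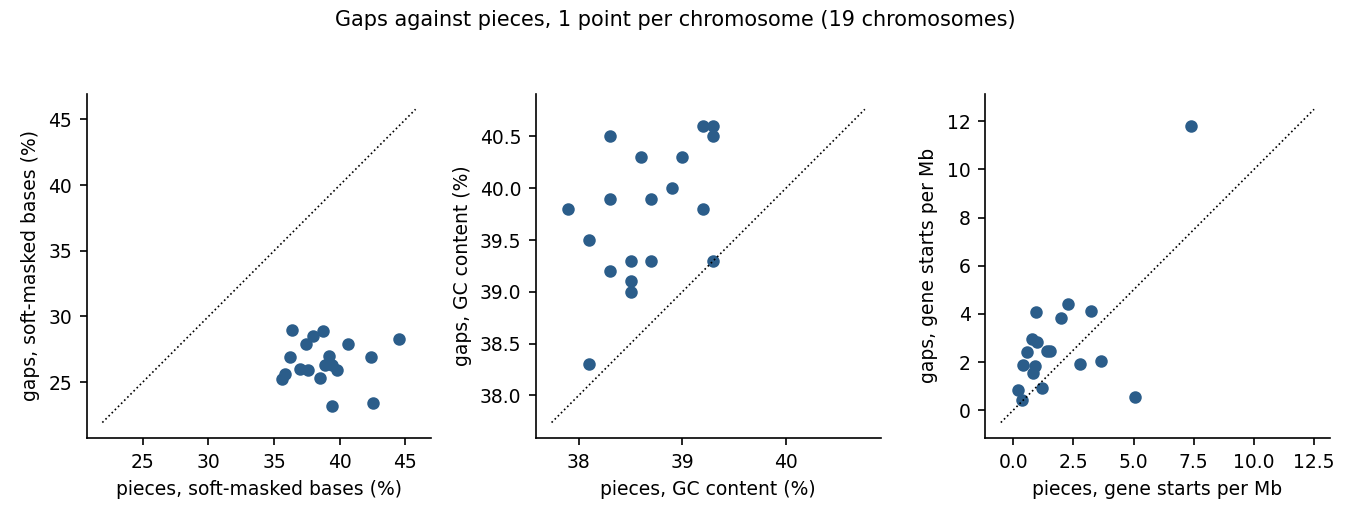
Each point is 1 of the 19 chromosomes, with the value over all pieces of its broken domains on the x axis and over all gaps on the y axis; panels show soft-masked bases (%), GC content (%) and protein-coding gene starts per Mb, and the dotted line marks equal values. All 19 points lie below the line for soft-masked bases, 18 lie above it for GC and 15 for gene starts.

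The broken domains were poor in genes, and most of their genes started in pieces. Of 20807 protein-coding genes on the autosomes in GENCODE M21, with the start taken as the outer end of the gene, 645 started in broken domains, and 134 of the 311 domains held none. Pieces held 481 of these starts (74.6%), gaps 100 (15.5%) and uncovered ends 64 (9.92%). Together 164 of 645 starts lay outside mESC dTAG domains (25.4%, interval 22.2 to 28.9), near the 22.7% among the 4453 starts in all mESC DMSO domains. Per length, gaps had 2.3 starts per Mb (interval 1.87 to 2.8) and pieces 1.76 (interval 1.61 to 1.93), with 14.9 in the grid outside both mESC sets. The order was the same in domains with 2 or 3 pieces, at 4.36 in gaps (interval 3.77 to 5.01) and 2.94 in pieces (interval 2.77 to 3.11). It did not hold for the broken domains with 5 or more pieces. There gaps had 1.17 starts per Mb (interval 0.8 to 1.65) and pieces 1.58 (interval 1.4 to 1.77). Starts were densest in gaps of 5 kb, at 6.06 per Mb from 17 starts, and sparsest in gaps of 125 kb or more, at 1.18 per Mb from 19. Bodies of protein-coding genes covered 34.5% of gap bases and 20.0% of piece bases.

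Genes that started in gaps were longer than those in pieces. Their median length was 19.6 kb and 34 of 100 were at least 100 kb long (34%, interval 25.5 to 43.7), compared with 8.45 kb and 70 of 481 (14.6%, interval 11.7 to 18.0) for genes that started in pieces. The share was 11.9% among all 4453 genes that started in mESC DMSO domains. Olfactory and vomeronasal receptor genes, which are short, made up 131 of the 481 in pieces. With these left out, an alternative chosen after the data were seen, 36.6% of 93 genes in gaps (interval 27.5 to 46.7) and 20% of 350 in pieces (interval 16.1 to 24.5) were at least 100 kb long, against 16.8% of 3134 in mESC DMSO domains. The promoters of genes in gaps also held more CG. Of the 71 genes with a start in a gap that had a RefSeq promoter there, 22 had at least 10 CG in the 250 bases before the start (31.0%, interval 21.4 to 42.5), against 34 of 360 in pieces (9.44%, interval 6.84 to 12.9). Over all 25748 autosomal promoters the share was 38.8%. These outnumber the 20807 protein-coding genes, so that set is not like the genes in gaps and pieces. Without the receptors the shares were 32.4% of 68 in gaps and 13.1% of 260 in pieces. Unc5c and Kcnh7, whose promoters are printed above, belong to these 22, and Lrrtm1 does not. In 2CLC DMSO, 84 of the 100 starts in gaps were still inside a domain, and in 2CLC dTAG 53 were. For starts in pieces these counts were 463 and 424 of 481.

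The starts of each gene list were counted in pieces, gaps and uncovered ends, and no test compares the lists. Olfactory receptors, the largest family, had 103 starts in broken domains, with 93 in pieces, 4 in gaps and 6 in uncovered ends. The 4 in gaps, Olfr1333, Olfr1331, Olfr652 and Olfr229, all lay in gaps of 5 kb, and 1 of them, Olfr1331, was outside 2CLC dTAG domains. Vomeronasal receptors, which detect pheromones, had 38 of 41 starts in pieces, and the 3 in gaps (Vmn1r188, Vmn2r88 and Vmn1r184) were inside both 2CLC sets. Both families lay mainly in mESC DMSO domains across the autosomes, where 83 of 1010 olfactory and 4 of 309 vomeronasal starts were outside mESC dTAG domains.

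Genes for adhesion and guidance of neurons had 16 starts in broken domains, of which 6 lay in gaps, 9 in pieces and 1, that of the guidance receptor gene Robo2, in an uncovered end. The 6 in gaps were Lrrtm1, Lrrtm3 and Cntnap4, for proteins of synapses, Unc5c, a netrin receptor gene, Ntng1, for a netrin relative, and Opcml, for an adhesion protein anchored in the membrane. All of these but Opcml were outside 2CLC dTAG domains, and Lrrtm3 and Cntnap4 were outside 2CLC DMSO domains too. Starts in pieces included Nlgn1, Dcc, Cntn3, Cntn4 and Epha3. Over all mESC DMSO domains, 15 of 38 starts of this list were outside mESC dTAG domains. Among ion channels, the potassium channel genes Kcnh7 and Kcnq5 started in gaps and Kcnc2 in an uncovered end, with none in a piece. Over all mESC DMSO domains, 16 of 22 starts of this list were outside mESC dTAG domains. Kcnq5 lay outside both 2CLC sets and Kcnh7 inside both. Of 9 neurotransmitter receptor starts, the glutamate receptor genes Gria1 and Grik1 were in gaps, 4 were in pieces (Gabra4, Gabrb1, Gabrg3 and Glra3) and 3 were in uncovered ends, and over all mESC DMSO domains 8 of 20 were outside mESC dTAG domains. Gria1 and Grik1 differed in the 2CLC sets, since Grik1 was inside both.

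The remaining lists had few starts. Of the cadherins, Pcdh18 started in a gap of 5 kb that both 2CLC sets covered and Pcdh7 in a piece. Zinc finger genes of the Zfp family had 2 starts, Zfp352 and Zfp958, both in pieces. Gene families of the 2-cell state had 3, the ubiquitin peptidase genes Usp17la, Usp17lb and Usp17le, all in pieces. Zfp352, also a gene of the 2-cell state, was counted with the zinc finger genes only. The ribosomal protein list had 1, Rpl36a-ps1, in an uncovered end, and developmental transcription factors had none. Over all mESC DMSO domains, 3 of 22 cadherin, 3 of 73 Zfp and 1 of 35 2-cell starts were outside mESC dTAG domains. For ribosomal proteins and developmental transcription factors these counts were 1 of 3 and 2 of 3. Pieces held 81.1% of the bases of the broken domains, so most starts would lie in them by length alone. Counts this small describe the lists and do not set them apart from one another.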

How the data were processed

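Per the labels and the methods of the study, the authors aligned reads to mm10 with STAR 2.7.10 keeping reads that match several places, removed duplicates with Picard 2.26.0, scaled coverage with deepTools 3.5.1 without chromosomes X and M, took the log2 ratio of immunoprecipitation to input per bin, and called a domain from bins above a high percentile outward until a bin below a low one. Whether replicates were pooled, and whether percentiles were set per list, was not stated. The deposited files hold positions with a score of 0, so positions say nothing of the amount of the mark. The 4 lists of sorted cells share a grid of 5 kb bins. Overlaps were counted in Python with numpy and scipy on this grid, with scripts tested on simulated domains. Genes came from GENCODE M21, base content and promoters from RefSeq GRCm38.p6, and bins with at least 50% unknown bases were left out of base content. Regions were named by rank (most pieces, widest, narrowest, lowest and highest kept share, widest gaps) and list genes by a start in a gap. The protease cluster was described after its values were seen. The domains and gene lists were chosen with earlier results of these data known. Bulk libraries at 24 h, the list with no named condition and chromosome X were not used in the main values.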

Additional observations from a re-analysis of the deposited data

How the results depend on the processing

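No paired analysis was possible because each condition has 1 list of domains and no values per replicate. Of the other values computed under alternatives, 38 stayed within set limits around the main value and 14 moved. The limit was a factor of 1.5 for the counts of domains and gaps. For the rest it was the SD over 19 chromosomes or the Wilson or Poisson 95% interval, so the limits are unlike each other. With 3 or more pieces there were 617 domains, 49.3% of them met by 4 or more 2CLC dTAG domains, and 2.82 gene starts per Mb of gap. With 5 or more there were 161 domains with 833 gaps, 80.7% met by 4 or more, and 1.17 starts per Mb. When mESC dTAG domains 1 bin apart were joined, 124 domains with 453 gaps were left, 74.3% of bases were kept, 81.5% were met by 4 or more, 29.8% of edges were within 1 bin of a 2CLC dTAG edge, and gaps had 1.24 starts per Mb (interval 0.852 to 1.74) beside 1.01 in pieces. With all annotated genes gaps held 11.4 starts per Mb. In an addition made after the data were seen, gaps had 26.1% to 26.9% soft-masked bases under these rules and pieces 37.5% to 39.8%, and the gap bases outside 2CLC dTAG were at most 57.2% and the piece bases at most 14.1%. Leaving out each chromosome in turn moved none of 171 values beyond these limits. Each step drops few of the domains and the limits are wide, so the values could hardly have moved beyond them. Chromosome X, left out, had 20 such domains of 453. Gaps of 1 bin are the finest step the lists can show, and depth was not given, so no limit of detection can be set for them.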
